A study of Mus musculus with 28 samples.

Results

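The genes of platelet-derived growth factor (PDGF) signaling were described in a mouse model of the arteriovenous fistula (AVF), a vein joined to an artery for hemodialysis. They were chosen by symbol and comprise 7 genes: 4 ligand genes (*Pdgfa*, *Pdgfb*, *Pdgfc*, and *Pdgfd*), the receptor genes *Pdgfra* and *Pdgfrb*, and the receptor-like gene *Pdgfrl*, out of 56980 genes in the bulk table. All 7 passed the filter on low counts, which asked for a normalized count of 100 or more on average. The animals were male and female C57BL/6 mice, and every one of them, controls included, had undergone 5/6 nephrectomy, which removes most kidney tissue, and then the joining of the end of a jugular vein to the side of a carotid artery. Bulk RNA sequencing was done on single vessels: 7 contralateral jugular veins, which remained outside the fistula, and 8 early, 5 mid, and 5 late AVFs, labelled day 3, 10, and 21 after surgery. The contralateral veins therefore came from nephrectomized animals with a fistula on the other side, and no veins from mice without surgery were analysed here. Single-cell RNA sequencing was done on 3 libraries, for contralateral veins and for early and late AVFs, with 10 vessels of both sexes pooled in each. Their early and late AVFs were collected later on average than the bulk AVFs of the same name, per the study's methods, so the time points of the assays are not the same. With 1 library each, values between these libraries have no replicate check.

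PDGFs are secreted dimers that bind receptor tyrosine kinases on mesenchymal cells and drive their division and migration. PDGF-A and PDGF-B are secreted in active form, while PDGF-C and PDGF-D are secreted with a blocking domain that proteases must remove. PDGFR-α binds mainly PDGF-A, PDGF-B, and PDGF-C, and PDGFR-β binds PDGF-B and PDGF-D. In blood vessels, endothelial PDGF-B is known for recruiting pericytes and smooth muscle cells (SMCs), which carry PDGFR-β. The protein of *Pdgfrl* resembles the outer part of these receptors and lacks a kinase domain.

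*Pdgfd* was the PDGF gene with the clearest loss after surgery. It fell in early AVFs to below the range of the contralateral veins and was higher again in late AVFs. *Pdgfrl* fell in early AVFs too, on a call that depended on which libraries were included. *Pdgfa* was higher in early AVFs, short of the threshold. The balance of the receptors moved from *Pdgfra* toward *Pdgfrb* between early and late AVFs. In the single-cell libraries, *Pdgfra* and *Pdgfrl* lay in fibroblasts, *Pdgfrb* in SMCs and fibroblasts, *Pdgfd* in SMCs, fibroblasts, and endothelial cells, and *Pdgfb* in endothelial cells and monocytes or macrophages (mono/macros). *Pdgfa* was found in several classes, with high levels in SMCs and Schwann cells, and *Pdgfc* in mono/macros, SMCs, and fibroblasts.

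Promoter sequences are shown for *Pdgfa* and *Pdgfd*, the ligand genes with the highest and the lowest log2 fold change in early AVFs. RefSeq promoter sequences (GRCm38.p6) were found for 4 of the 7 genes, with 5 start sites in all, and each was read over the 250 bases before the start. The 150 bases before the start are printed on the gene's strand, in lower case, with GC boxes (GGGCGG on either strand) in capitals. The first lies before a *Pdgfa* start at chr5:138994945-138995094 on the minus strand, and the second before the *Pdgfd* start at chr9:6168336-6168485 on the plus strand.
Pdgfa: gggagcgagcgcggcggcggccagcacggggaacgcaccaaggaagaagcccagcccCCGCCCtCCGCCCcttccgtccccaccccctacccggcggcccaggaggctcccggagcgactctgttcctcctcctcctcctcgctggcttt
Pdgfd: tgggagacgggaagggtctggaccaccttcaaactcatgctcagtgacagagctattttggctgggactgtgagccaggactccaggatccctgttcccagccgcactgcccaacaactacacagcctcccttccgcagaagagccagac
This *Pdgfa* promoter had a GC content of 72.4%, 28 CpG dinucleotides, and 2 GC boxes over the 250 bases, and lay at percentile 93.6 of GC content among 32851 promoters of the same length. The other listed *Pdgfa* start had 66.4%, 19 CpG dinucleotides, and 1 GC box. The *Pdgfd* promoter had 53.6% GC, 3 CpG dinucleotides, no GC box, and 1 TATAAA. *Pdgfc* (50.8% GC, 3 CpG) and *Pdgfra* (54.4% GC, 4 CpG) had no GC box either, while 32.7% of all promoters had one and 12.4% had TATAAA on either strand. The median of all promoters was 52.4% GC with 6 CpG dinucleotides. The *Pdgfa* starts therefore stood apart from *Pdgfc*, *Pdgfd*, and *Pdgfra* in base composition, as a description of sequence alone.

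Some facts of the libraries bear on all results below. Bulk libraries had between 20254173 and 67457501 counts in total. Levels are given as CPM, counts scaled to a common total of 1000000 after TMM, and a gene was called if its adjusted *p* was below 0.01 and its log2 fold change was 1 or more in either direction in edgeR's quasi-likelihood F test over 12673 genes. Summed marker genes of other cell types moved with the time points. SMC markers (8 genes, such as *Myh11* and *Acta2*) summed to 13698 to 28467 CPM in contralateral veins and to 1575 to 4043, 2228 to 2709, and 2778 to 4567 CPM in early, mid, and late AVFs. Endothelial markers (8 genes) summed to 2123 to 3494 CPM in contralateral veins and 323 to 845 over all AVFs, and mono/macro markers (8 genes) to 1920 to 7460 CPM and 7176 to 33958 CPM. Fibroblast markers (8 genes) were lowest in early AVFs 5, 6, and 7, at 12067, 5852, and 3767 CPM, against 18539 to 47283 in contralateral veins. Platelet markers were highest in early 6, at 12700 CPM, and genes of skeletal muscle and of thyroid or parathyroid tissue were found in some AVFs. In bulk vessels, fewer cells of a type and less RNA per cell cannot be told apart. The labelled sex differed from the sex-linked reads in 8 of 25 libraries, none of them contralateral, so fits that use labelled sex are given only as alternatives.

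**Figure D1:**
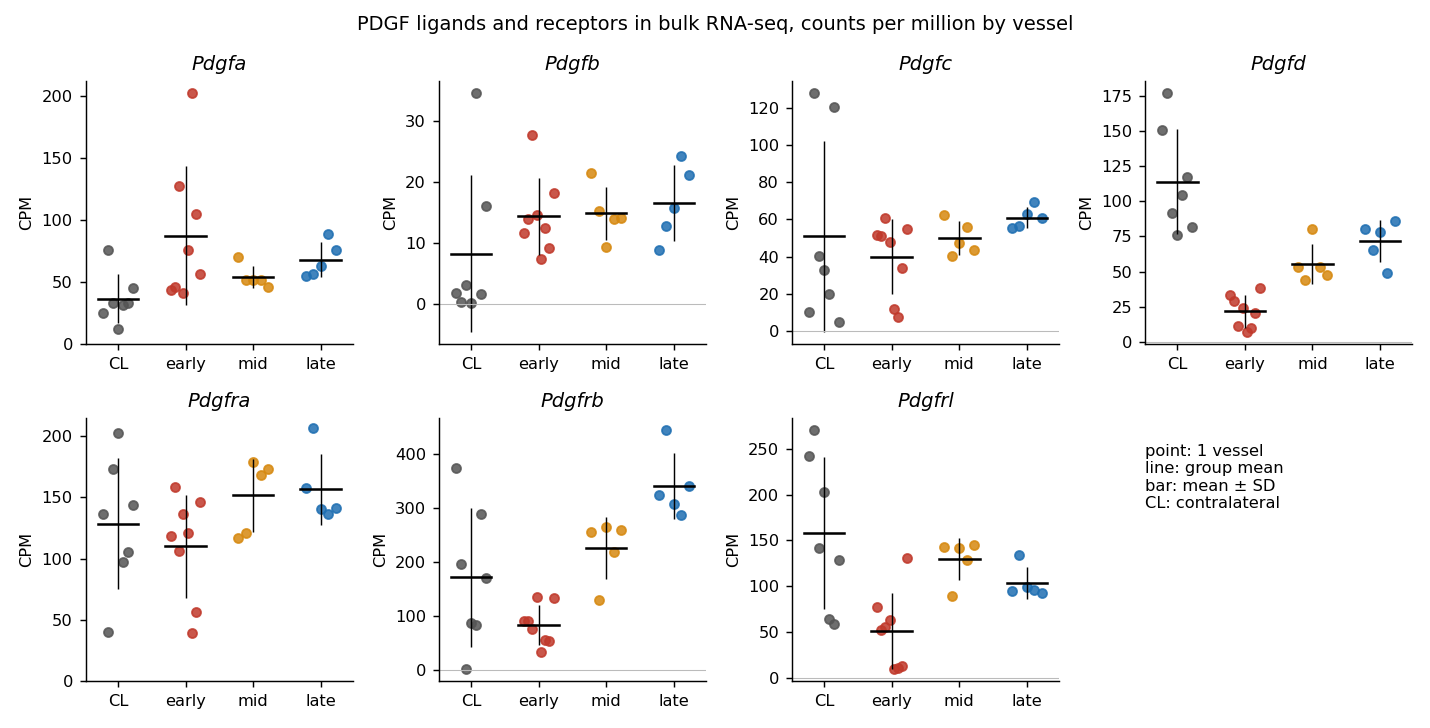
Level of each PDGF gene in each bulk vessel (CPM on a linear axis), by group, with a point per vessel, a line at the group mean, and a bar of 1 SD around it. *Pdgfd* in early AVFs (6.70 to 38.2 CPM) lies below every contralateral vein (75.7 to 177 CPM), and late *Pdgfrb* (287 to 445 CPM) lies above every early and mid AVF.

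Among the ligands, *Pdgfd* (ENSMUSG00000032006, chromosome 9, 6168584 to 6378850, plus strand, GRCm38) encodes the PDGFR-β ligand that needs proteolytic activation. Its level was 75.7 CPM in the lowest, 104 in the median, and 177 in the highest of the contralateral veins, and 6.70, 22.2, and 38.2 CPM in the early AVFs. In the mid AVFs it was 53.3, 43.9, 80.1, 53.2, and 47.5 CPM, and in the late AVFs 80.3, 65.2, 78.2, 49.2, and 86.3 CPM. Every early AVF was thus below every contralateral vein and below every mid and late AVF, while mid and late AVFs overlapped contralateral veins. *Pdgfd* fell by 2.40 ± 0.33 (SE) on the log2 scale in early AVFs (114 ± 37.6 against 21.6 ± 11.6 CPM, mean ± SD, n = 7 and 8, edgeR adjusted *p* = 5.33e-06). Of all tested genes, 12.6% were called in this comparison, 6.45% as lower, and 2.34% were lower without overlap. The call was made in 25 of 25 fits that left out 1 library, with log2 fold changes from -2.63 to -2.22.

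*Pdgfd* was called higher in late than in early AVFs, with a log2 fold change of 1.73 ± 0.34 (SE, edgeR adjusted *p* = 0.00363), where 3.01% of tested genes were called, 0.726% as higher, and 7.16% were higher without overlap. The call was lost without late 16, 17, 19, or 24, which left 21 of 25 such fits, and without early 5, 6, and 7 together (edgeR adjusted *p* = 0.0238). In mid against early AVFs the log2 fold change was 1.36 ± 0.34 (edgeR adjusted *p* = 0.0218, not called), where 0.00789% of genes were called and 3.31% were higher without overlap. It was called there only when early 10 was left out (edgeR adjusted *p* = 0.00895). Late AVFs stood 0.67 lower than contralateral veins on the log2 scale (-0.67 ± 0.37, edgeR adjusted *p* = 0.266), a difference within the spread between vessels.

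*Pdgfa* (ENSMUSG00000025856, chromosome 5, 138976014 to 138997370, minus strand, GRCm38) encodes a ligand that acts through PDGFR-α alone. It was 12.4, 33.1, and 76.1 CPM in the lowest, median, and highest contralateral veins and 41.3, 66.3, and 203 CPM in the early AVFs. In mid AVFs it was 69.9, 52.1, 51.8, 51.9, and 45.9 CPM, and in late AVFs 55.2, 56.8, 63.3, 88.8, and 76.3 CPM. Most AVFs exceeded most contralateral veins, but contralateral 28, at 76.1 CPM, overlapped all 3 AVF groups. The highest early value came from early 6, which also had the lowest pericyte marker sum, 62.2 CPM, and the highest platelet marker sum. The log2 fold change in early AVFs was 1.25 ± 0.36 (SE, 95% interval 0.55 to 1.95, edgeR adjusted *p* = 0.0117), which missed the threshold. It passed without contralateral 28, early 1, early 2, or early 4, and over all 25 fits that left out 1 library the adjusted *p* by edgeR ran from 0.00137 to 0.0305. In late AVFs it was 0.89 ± 0.39 (edgeR adjusted *p* = 0.149).

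*Pdgfb* (ENSMUSG00000000489, chromosome 15, 79995874 to 80014977, minus strand, GRCm38) encodes the ligand that binds both receptors. It varied most among contralateral veins, at 0.14 CPM in the lowest, 1.78 in the median, and 34.7 in the highest (contralateral 35), with contralateral 633 at 16.2 CPM. The AVFs lay within that range, at 7.43 to 27.8 CPM in early, 9.41 to 21.6 in mid, and 8.82 to 24.4 in late AVFs. All 18 AVFs were above 5 of the 7 contralateral veins, and the groups overlapped through the other two. The log2 fold change in early AVFs was 0.80 ± 0.74 (SE, 95% interval -0.64 to 2.25, edgeR adjusted *p* = 0.482), so a rise or a fall was not detectable against that spread.

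*Pdgfc* (ENSMUSG00000028019, chromosome 3, 81036416 to 81214040, plus strand, GRCm38) encodes the PDGFR-α ligand that needs proteolytic activation. Contralateral veins ran from 4.66 CPM (contralateral 633) through a median of 32.8 to 128 CPM (contralateral 28), with contralateral 632 at 120 CPM. Early AVFs ran from 7.60 to 60.7 CPM with a median of 49.6, the lowest being early 6 and 5, at 7.60 and 12.0 CPM. Mid AVFs lay at 40.1 to 62.4 CPM and late AVFs at 55.5 to 69.5 CPM, with no vessel as far from its group as those. The log2 fold change in early AVFs was -0.35 ± 0.52 (SE, edgeR adjusted *p* = 0.687), and its sign changed, to at most 0.10, when contralateral 28 or contralateral 632 was left out. The library-to-library spread was wider than any difference between groups.

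**Figure D2:**
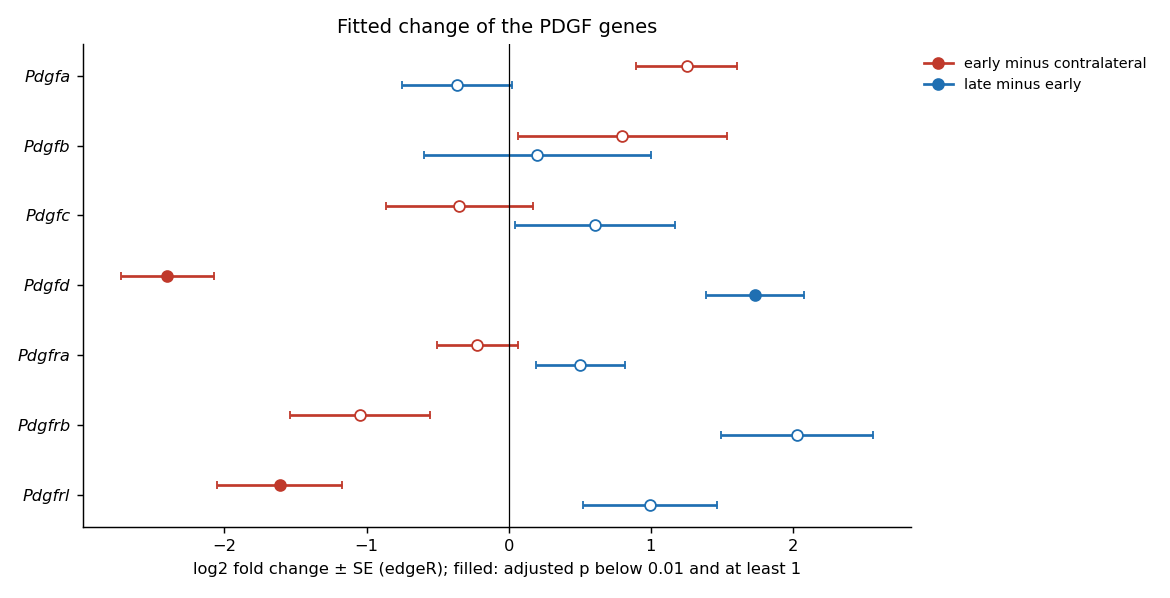
Log2 fold change of each PDGF gene by edgeR (x axis) for early minus contralateral and late minus early vessels, with bars of 1 SE. Filled points were called: *Pdgfd* in both comparisons (-2.40 and 1.73) and *Pdgfrl* in early AVFs (-1.61).

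Among the receptors, *Pdgfrb* (ENSMUSG00000024620, chromosome 18, 61045150 to 61085061, plus strand, GRCm38) encodes the receptor of mural cells. It was 375, 197, 2.01, 86.7, 83.4, 288, and 170 CPM in the contralateral veins. Early AVFs ran from 33.5 through a median of 83.1 to 134 CPM, mid AVFs were 255, 129, 266, 219, and 260 CPM, and late AVFs 323, 445, 307, 287, and 340 CPM. Late AVFs were above every early and every mid AVF, and contralateral 31 stood alone at 2.01 CPM. In that vein *Pdgfrb* was low while the summed SMC and pericyte markers, 13698 and 274 CPM, were near the lower end of the other contralateral veins (14705 and 271 CPM). The log2 fold change of late against early AVFs was 2.03 ± 0.54 (SE, 83.3 ± 36.6 against 341 ± 61.6 CPM, mean ± SD, n = 8 and 5, edgeR adjusted *p* = 0.0182), short of the threshold. Without contralateral 31, a library outside this comparison that enters the shared estimate of spread, it passed (edgeR adjusted *p* = 0.00145).

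In early AVFs *Pdgfrb* stood at -1.04 ± 0.49 on the log2 scale (SE, edgeR adjusted *p* = 0.134) against contralateral veins, and without contralateral 31 at -1.29, which was called (edgeR adjusted *p* = 0.00623). Mid against early AVFs gave 1.44 ± 0.53 (edgeR adjusted *p* = 0.159), and late AVFs against contralateral veins 0.99 ± 0.55 (edgeR adjusted *p* = 0.278). Late AVFs lay above mid AVFs without overlap, as did 1.06% of tested genes, with an edgeR adjusted *p* of 1.00. The sum of the pericyte markers (6 genes, such as *Rgs5* and *Kcnj8*) moved alongside. It was 271 to 1121 CPM in contralateral veins and 62.2 to 302, 283 to 426, and 329 to 645 CPM in early, mid, and late AVFs. The single markers did not all follow. Medians in early, mid, and late AVFs were 13.9, 33.0, and 53.3 CPM for *Notch3*, and *Rgs5* rose likewise. They were 39.3, 76.5, and 71.6 CPM for *Kcnj8* and 9.21, 8.52, and 8.09 CPM for *Higd1b*. Of 5 tested pericyte markers, 1 was called higher in late than in early AVFs. The part of pericytes in the *Pdgfrb* result was not tested.

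*Pdgfra* (ENSMUSG00000029231, chromosome 5, 75152292 to 75198215, plus strand, GRCm38) encodes the receptor typical of fibroblasts. It was 39.9, 136, and 203 CPM in the lowest, median, and highest contralateral veins and 39.1, 120, and 158 CPM in the early AVFs. In mid AVFs it was 117, 121, 178, 168, and 173 CPM, and in late AVFs 157, 207, 140, 136, and 142 CPM. All groups overlapped, and the lowest values came from contralateral 28 and from early 6 and 7. The log2 fold change in early AVFs was -0.22 ± 0.29 (SE, 95% interval -0.78 to 0.34, edgeR adjusted *p* = 0.642), and it turned to 0.11 when early 5, 6, and 7, the early AVFs with the lowest fibroblast marker sums, were left out.

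*Pdgfrl* (ENSMUSG00000031595, chromosome 8, 40926212 to 40990785, plus strand, GRCm38) was 242, 271, 142, 202, 64.8, 58.9, and 129 CPM in the contralateral veins. Early AVFs were at 77.2, 53.0, 55.7, 63.1, 10.2, 11.1, 13.6, and 131 CPM, in the order 1 to 7 and then 10. Mid AVFs were 143, 89.8, 142, 129, and 145 CPM, and late AVFs 94.7, 134, 99.3, 95.9, and 92.8 CPM. Early 5, 6, and 7 were the lowest of all vessels, while early 10 lay within the range of the contralateral veins. *Pdgfrl* fell by 1.61 ± 0.44 (SE) on the log2 scale in early AVFs (158 ± 83.0 against 51.9 ± 41.3 CPM, edgeR adjusted *p* = 0.00869). The call was made in 7 of 25 fits that left out 1 library, those without contralateral 35, 632, or 633, early 10, mid 13, or late 19 or 23, with adjusted *p* by edgeR of 0.00127 to 0.0221 over the 25. It was lost with early 5, 6, and 7 left out together, the vessels in which fibroblast markers were lowest, whose part was not tested. Late against early AVFs gave 0.99 ± 0.47 (edgeR adjusted *p* = 0.291) and late AVFs against contralateral veins -0.62 ± 0.50 (edgeR adjusted *p* = 0.484).

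No PDGF gene was called in mid or late AVFs against contralateral veins, where 6.05% and 5.33% of tested genes were, nor between late and mid AVFs, where 0% were. The order of the genes per length (RPKM over exon length) changed with time. In contralateral veins *Pdgfrl* was the first, at 50.7 ± 26.5 RPKM, followed by *Pdgfd* (36.2 ± 11.9) and *Pdgfrb* (31.4 ± 23.5), which overlap within their SDs. In early AVFs *Pdgfa* came first, at 28.0 ± 18 RPKM with early 6 at 65.0, but overlapped *Pdgfrl* (16.6 ± 13.2) and *Pdgfrb* (15.2 ± 6.68) within their SDs, and *Pdgfd* was sixth, at 6.85 ± 3.69. In late AVFs *Pdgfrb* came first, at 62.2 ± 11.2 RPKM, beyond the SD of the next gene, *Pdgfrl* (33.1 ± 5.52). *Pdgfb* was the lowest in every group, from 1.99 ± 3.10 RPKM in contralateral veins to 3.99 ± 1.5 in late AVFs.

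Ratios of 2 genes within a vessel do not depend on the scaling between libraries. Over 3 ratios and 6 pairs of groups, 18 exact two-sided permutation tests were made. The log2 ratio of *Pdgfra* to *Pdgfrb* had a mean of 0.34 ± 2.93 (SD) in contralateral veins and of 0.41 ± 0.70, -0.55 ± 0.38, and -1.12 ± 0.09 in early, mid, and late AVFs. It differed between late and early AVFs by -1.53 without overlap (exact permutation *p* = 0.00155, the smallest that these group sizes allow, adjusted *p* = 0.0140) and stayed below 0.05 in 25 of 25 tests that left out 1 library. Mid against early AVFs gave -0.96 (exact permutation, adjusted *p* = 0.0350), and 18 of 25 such tests stayed below 0.05, all but those without early 1, 2, 3, 5, or 7 or mid 13 or 15. The late AVFs thus differed from early AVFs by more than the spread between vessels. The SD of the contralateral veins was widened by contralateral 31, whose log2 ratio was 6.41, but the other contralateral veins still ran from -2.31 to 1.22.

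The log2 ratio of *Pdgfc* to *Pdgfd*, the ligands secreted in latent form, was -1.89 ± 1.64 in contralateral veins and then 0.83 ± 0.76, -0.14 ± 0.37, and -0.21 ± 0.42 in the AVFs by time. It was 2.72 higher in early AVFs than in contralateral veins (exact permutation *p* = 0.000622, adjusted *p* = 0.0112) and below 0.05 in 25 of 25 tests that left out 1 library. From early AVFs it was lower in mid by 0.97 (difference -0.97, exact permutation, adjusted *p* = 0.0392) and in late AVFs by 1.04 (difference -1.04, exact permutation, adjusted *p* = 0.0350), which held in 14 and 16 of 25 such tests. In both of the latter, leaving out any of early 1, 2, 3, 4, 5, or 7 lost the call, as did early 10 or mid 12, 13, 14, or 15 for mid AVFs and late 16, 19, or 24 for late AVFs. The ratio of *Pdgfa* to *Pdgfb* passed in no pair (lowest adjusted *p* = 0.313 by exact permutation).

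**Figure D3:**
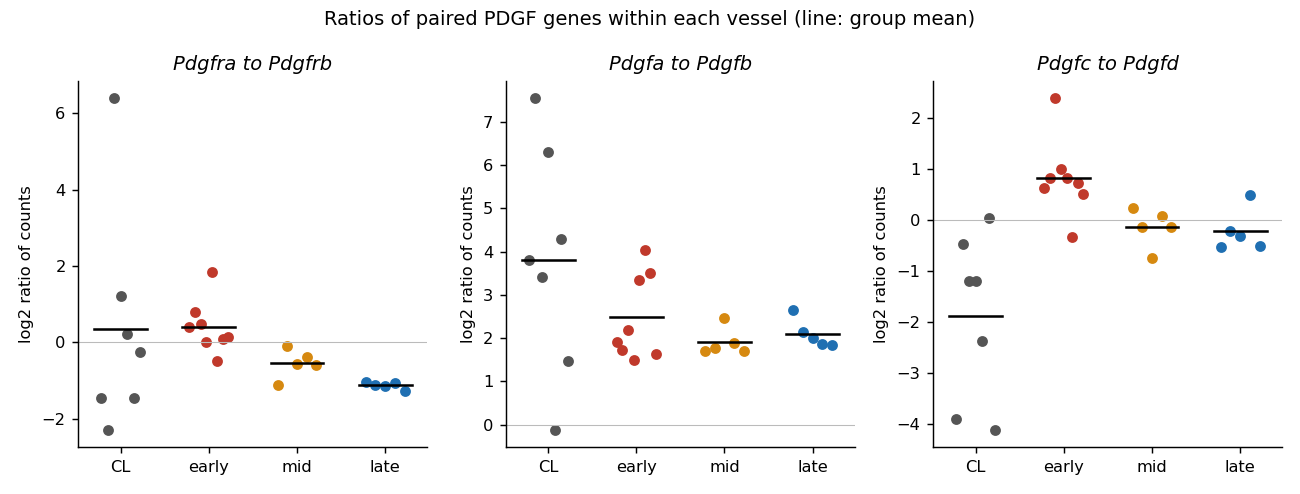
Log2 ratio of counts of *Pdgfra* to *Pdgfrb*, *Pdgfa* to *Pdgfb*, and *Pdgfc* to *Pdgfd* in each bulk vessel (y axis) by group, with a point per vessel and a line at the group mean. The 5 late AVFs lie below every early AVF for *Pdgfra* to *Pdgfrb*, and contralateral 31 stands at 6.41.

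Across the 25 libraries, the genes closest to each PDGF gene in log2 CPM were named as a description, since the points share group, depth, and cell makeup. *Pdgfd* was closest to *Cpxm2* (Pearson's r = 0.954), *Podn* (0.931), and *Susd2* (0.931). *Pdgfrb* was closest to *Heyl* (0.953), a Notch target gene of mural cells, then *Osbpl5* (0.933) and *Fat1* (0.930). *Pdgfrl* was closest to *Tgfb3* (0.933), a transforming growth factor ligand, then *Mamdc2* (0.899) and *Col6a6* (0.896), a collagen VI chain. *Pdgfra* was closest to *Tbc1d2b* (0.901), *Zfp521* (0.883), and *Tm9sf1* (0.866), and *Pdgfa* to *Reep5* (0.840), *Spred1* (0.832), and *Chsy1* (0.815). *Pdgfb* was closest to *Gpn2* (0.917), *Trps1* (0.910), and *Slc25a45* (0.910), although Spearman's rho with *Gpn2* was 0.387, and *Pdgfc* had no r above that with *Gprin3* (0.788), followed by *Slc4a1* (0.772) and *Pcdhga5* (0.754). Between PDGF genes, *Pdgfd* and *Pdgfrl* had r = 0.801 (0.647 with group means removed). *Pdgfa* and *Pdgfra* had r = -0.582 (-0.809 with group means removed), the lowest r of the 21 pairs either way. Spearman's rho was 0.599 and -0.378 for these pairs, and was lowest for *Pdgfa* and *Pdgfd* (-0.439).

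The 40 other genes listed for the pathway covered ligand processing and binding, signal relay, and negative regulation, and 39 passed the filter (all but *Plau*). In early AVFs 5 were called higher, where 6.17% of all tested genes were, and 3 lower, where 6.45% were. Their median log2 fold change was 0.13, beside -0.01 over all tested genes. In mid AVFs none were higher and 1 was lower (median 0.38 beside -0.10), in late AVFs 1 was higher and 2 lower (median 0.28 beside -0.09), beside 6.05% and 5.33% of all tested genes called in either direction, and none were called between late or mid and early AVFs. At an edgeR adjusted *p* below 0.05 with the same fold, 2 were called in late against early AVFs, and DESeq2 called 2 as well.

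Of the 9 tested genes of ligand processing and binding, 2 rose and 1 fell in early AVFs, beside the same shares of all tested genes given above. *Furin*, a convertase that cleaves PDGF-A and PDGF-B precursors, rose from 10.4 ± 7.78 to 37.3 ± 13.6 CPM (log2 fold change 1.85 ± 0.49, edgeR adjusted *p* = 0.00736), and *Plaur*, the urokinase receptor, from 45.3 ± 29.7 to 212 ± 139 CPM (2.23 ± 0.39, edgeR adjusted *p* = 0.000140). *Pcsk5*, a second convertase, fell by 1.87 ± 0.43 on the log2 scale, from 151 ± 119 to 41.2 ± 21.8 CPM (edgeR adjusted *p* = 0.00213). The convertases thus moved in opposite directions. *Lrp1*, an endocytic receptor that associates with PDGFR-β, was called higher in late AVFs, from 297 ± 156 to 684 ± 172 CPM (1.20 ± 0.29, edgeR adjusted *p* = 0.00762). The calls for *Plaur* and *Pcsk5* were made in 25 of 25 fits that left out 1 library. The call for *Furin* was made in 14, and lost without contralateral 27 or 35, early 3, 4, 6, 7, or 10, mid 13, or late 19, 23, or 24. The call for *Lrp1* was made in 14 as well, and lost without contralateral 31 or 35, early 10, mid 13, 14, or 15, or any late AVF.

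Of the 18 genes of signal relay, 2 rose and 2 fell in early AVFs (beside 6.17% and 6.45% of all tested genes). *Mapk3*, which encodes the kinase ERK1, rose from 61.5 ± 26.7 to 147 ± 65.0 CPM (log2 fold change 1.26 ± 0.27, edgeR adjusted *p* = 0.00142). *Nck1*, an adaptor that links receptors to the cytoskeleton, fell by 1.31 ± 0.24 on the log2 scale (226.7 ± 102.98 to 91.6 ± 26.2 CPM, edgeR adjusted *p* = 0.000221). *Plcg1*, the phospholipase C recruited by active receptors, fell by 1.77 ± 0.33 (68.5 ± 31.8 to 20.04 ± 8.55 CPM, edgeR adjusted *p* = 0.000286).

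*Nck1* remained lower in mid AVFs (-1.21 ± 0.28, edgeR adjusted *p* = 0.00418) and late AVFs (-1.20 ± 0.28, edgeR adjusted *p* = 0.00510). The *Nck1* calls were lost without contralateral 28 in both, without mid 9, 12, 14, or 15 or late 24 for mid, and without late 16, 17, 23, or 24 for late AVFs. Of 12 negative regulators, *Ptprj*, a receptor phosphatase that acts on PDGFR-β, was the only one called: it rose in early AVFs from 7.50 ± 6.67 to 33.8 ± 4.09 CPM (2.17 ± 0.47, edgeR adjusted *p* = 0.00134). The calls for *Mapk3*, *Nck1* and *Plcg1* in early AVFs and for *Ptprj* were made in 25 of 25 fits that left out 1 library, while *Mapk3*, *Nck1*, and *Pcsk5* in early AVFs were lost when early 5, 6, and 7 were left out together.

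The single-cell libraries held 11563, 7074, and 7801 barcodes, of which 6319, 4753, and 5821 had 200 to 6000 genes and at most 10% mitochondrial counts. Median UMIs (unique molecular identifiers) per cell were 2751 in contralateral, 8951 in early, and 15425 in late cells. Levels are given on the same scale, as CPM of all UMIs of a cell class with a 95% exact Poisson interval, which covers counting error only, and shares of cells at equal depth were taken after thinning each cell to 1000 UMIs, without shallower cells. This left 1570, 405, and 1943 fibroblast-like and 584, 2002, and 1601 mono/macro-like cells. The PDGF genes took no part in the clustering. Classes were named from fixed markers: fibroblast-like cells numbered 1866, 405, and 1944 in contralateral, early, and late libraries, SMC-like cells 36, 235, and 510, endothelial-like cells 814, 76, and 90, and mono/macro-like cells 700, 2016, and 1615. SMC-like cells were thus 0.570%, 4.94%, and 8.76% of kept cells. In bulk vessels, by contrast, SMC marker sums were lower in AVFs than in contralateral veins. Shares of a gene's UMIs by class therefore apply to the cells kept, not to the vessel. Different clusters held most fibroblast-like cells in contralateral veins (cluster 3, 1662 cells) and late AVFs (cluster 1, 1920 cells). Likewise cluster 11 held 619 of the 700 contralateral mono/macro-like cells, against 31 early and 27 late cells, while clusters 2 and 4 held most of those in AVFs, so class levels of mono/macros compare different clusters. T cell-like and B cell-like cells served as background. There the receptor genes and *Pdgfrl* lay between 0 and 17.3 CPM, and *Pdgfd* between 0 and 1.82 CPM. Levels near these are read as background.

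**Figure D4:**
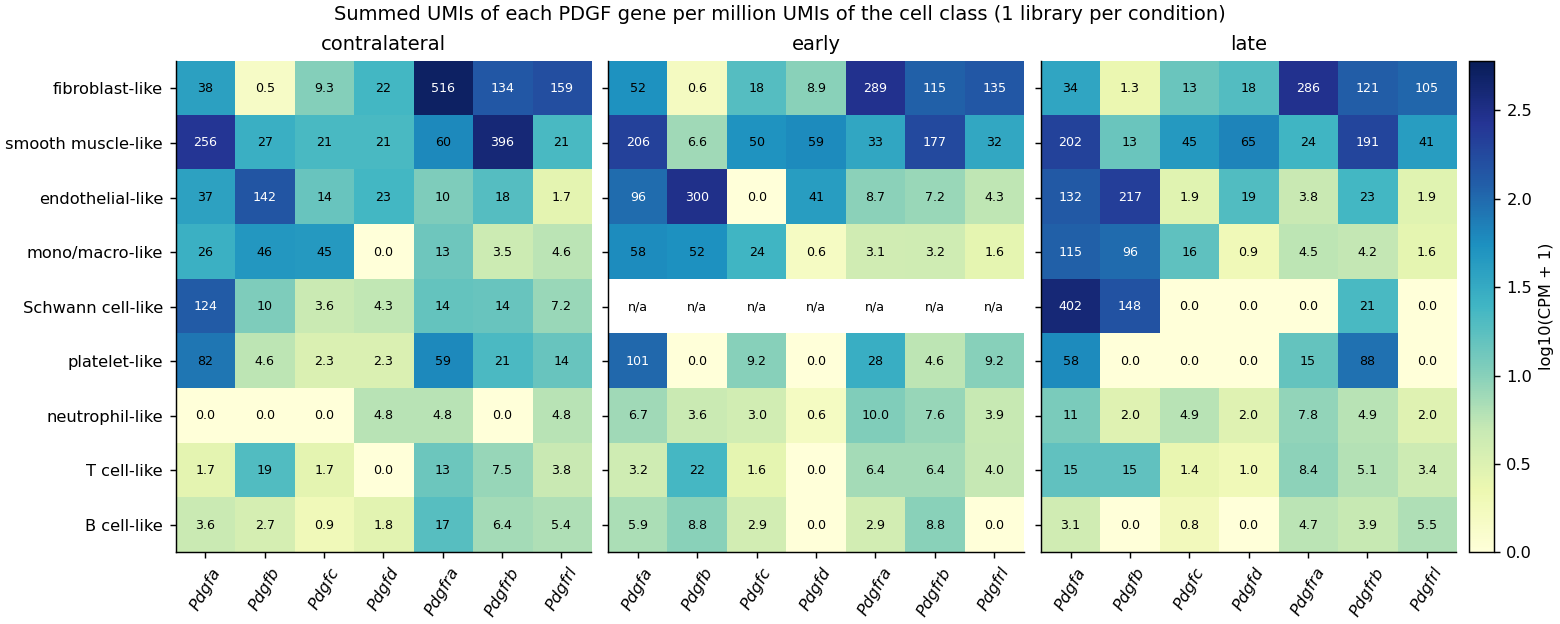
Level of each PDGF gene in CPM of all UMIs of each cell class (numbers, with color on a log10 scale) in the 3 single-cell libraries, with classes under 20 cells left blank. *Pdgfra* is highest in fibroblast-like cells (516, 289, and 286 CPM), *Pdgfb* in endothelial-like cells (142, 300, and 217 CPM).

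*Pdgfra* was a fibroblast gene in all 3 libraries. Fibroblast-like cells had 516 (504 to 529) CPM in contralateral veins, 289 (279 to 299) in early, and 286 (282 to 291) in late AVFs, and held 96.5%, 89.0%, and 95.4% of its UMIs. At equal depth 37.2% of contralateral, 24.9% of early, and 23.6% of late fibroblast-like cells had a UMI, while T cell-like cells had at most 0.888%. The level in the AVF libraries was lower than in the contralateral library by more than counting error, with 1 library each. In cluster 1 it was 533 CPM in contralateral (204 cells), 289 CPM in early (403 cells), and 285 CPM in late cells (1920 cells). In cluster 3 it was 513 CPM in contralateral cells and 524 (447 to 610) CPM in the 24 late cells. The difference between libraries was thus present within cluster 1, and in cluster 3 the contralateral level lay inside the interval of the few late cells.

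Fibroblast-like cells were clustered again and named from subtype markers. *Pdgfra* was highest in contralateral Pi16-like cells, named for an adventitial progenitor gene (583 CPM), and in quiescent-like cells (508 CPM in contralateral and 591 CPM in 30 late cells). It was lowest in activated-like cells, which carry genes such as *Postn* and *Tnc*, at 220 CPM in early and 210 CPM in late AVFs. The 10 leading genes of the activated-like subcluster held 2 activated markers and 2 markers of late-like cells, *Thbs4* and *Cilp*. Early and late Pi16-like cells had 460 and 304 CPM. Late-like cells had 354 (301 to 415) CPM in 43 contralateral cells, and 284 (256 to 313) and 292 (285 to 299) CPM in early and late AVFs. The early interval overlapped the contralateral one, and the late interval lay just below it. Only 2 contralateral cells were activated-like, so a change within that subtype could not be read. Pi16-like cells of both time points were lower than contralateral Pi16-like cells. Pi16-like cells of the libraries lay largely in different subclusters, however. Of 173 contralateral cells, 147 were in subcluster 9, which held 3 early and 10 late cells. Subclusters 5 and 7 held 49 and 31 early and 378 and 290 late cells, but 1 and 3 contralateral cells. The 10 leading genes of subclusters 5 and 7 included *Saa3*, *Hp*, and *Ptx3* but no Pi16-like marker, although 4 and 5 such markers were raised. The leading genes of subcluster 9 included the markers *Dpp4* and *Cd55*.

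*Pdgfrl* followed *Pdgfra* into fibroblasts but differed among their subtypes. Fibroblast-like cells had 159 (152 to 166) CPM in contralateral, 135 (128 to 142) in early, and 105 (102.6 to 108) in late libraries, with 96.0%, 80.9%, and 88.2% of its UMIs. Contralateral quiescent-like cells had 187 CPM, activated-like cells 146 and 155 CPM in early and late AVFs, and late-like cells, named from matrix genes of late AVFs such as *Comp*, 193 and 166 CPM. Pi16-like cells, by contrast, had 25.9 CPM in contralateral, 76.8 in early, and 23.9 in late libraries, largely in different subclusters as given above. In contralateral veins, Pi16-like cells thus had low *Pdgfrl* beside high *Pdgfra* (583 CPM), while quiescent-like cells had high *Pdgfrl* beside high *Pdgfra* (508 CPM).

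*Pdgfrb* was shared by SMCs and fibroblasts. SMC-like cells had 396 (332 to 469) CPM in contralateral veins, from 133 UMIs in 36 cells, and 177 (165 to 189) and 191 (183 to 198) in early and late AVFs. Fibroblast-like cells had 134 (128 to 141), 115 (108 to 121), and 121 (118 to 124) CPM. Per cell class the late level was therefore close to the early one in both. Fibroblast-like cells held 85.4%, 52.9%, and 68.6% of its UMIs and SMC-like cells 6.5%, 34.7%, and 27.7%. Among the cells kept, fibroblast-like cells thus held the larger share in each library, but contralateral SMC-like cells numbered only 36. Among fibroblast subtypes, late-like cells had 264 and 170 CPM in early and late AVFs, above the activated-like cells of the same libraries and above Pi16-like cells (65.8 and 69.1 CPM). In the contralateral library, late-like cells (160 CPM, 125 to 202, from 43 cells) and quiescent-like cells (141 CPM, 134 to 148) were not separated by their counting intervals. Cells with UMIs of both receptors made up 5.10%, 2.72%, and 2.57% of fibroblast-like cells at equal depth, beside 4.67%, 2.52%, and 2.68% from the product of the separate shares.

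*Pdgfd* had its highest level in AVF SMCs. SMC-like cells had 20.8 (8.38 to 43.0) CPM in contralateral veins, from 7 UMIs, and 59.2 (52.5 to 66.4) and 65.4 (61.0 to 70.0) in early and late AVFs. Fibroblast-like cells had 22.4 (19.9 to 25.2) CPM in contralateral, 8.9 (7.28 to 10.8) in early, and 18.4 (17.2 to 19.6) in late libraries, and endothelial-like cells 22.5 (17.5 to 28.6), 40.6 (27.0 to 58.6), and 18.9 (9.07 to 34.8) CPM. The order in fibroblasts, low in early and higher in late AVFs, is the one seen in bulk vessels, which were collected at other times after surgery, whereas the level in SMC-like cells was not lower in early than in contralateral libraries. Of the *Pdgfd* UMIs in the cells kept, fibroblast-like cells held 77.0%, 22.7%, and 50.7%, SMC-like cells 1.9%, 63.9%, and 46.2%, and endothelial-like cells 17.7%, 6.24%, and 0.557%. Over all cells *Pdgfd* was 12.9, 8.05, and 18.2 CPM. In the early library the fibroblast subtypes had 6.8 CPM in Pi16-like, 8.1 in activated-like, and 18 in late-like cells, the last from 25 UMIs.

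*Pdgfa* in SMC-like cells was above its level in fibroblast-, endothelial-, and mono/macro-like cells of the same library, at 256 (205 to 316), 206 (193 to 219), and 202 (194 to 210) CPM in contralateral, early, and late libraries. Mono/macro-like cells had 26.4 (21.2 to 32.4), 57.8 (55.0 to 60.6), and 115 (111 to 119) CPM, largely in different clusters as given above, and endothelial-like cells had 37.4, 95.6, and 132 CPM. Schwann cell-like cells had 124 (106 to 144) CPM in contralateral and 402 (331 to 482) CPM in late libraries, the latter from 24 cells. Platelet-like cells, shallow at a median of 636 to 688 UMIs, had 82.2, 101.2, and 58.4 CPM. At equal depth the share of mono/macro-like cells with a *Pdgfa* UMI was 2.40%, 5.15%, and 8.93%, while in T cell-like cells it was at most 0.538%. Mono/macro-like cells made up 11.1%, 42.4%, and 27.7% of kept cells and held 9.0%, 45.2%, and 36.1% of *Pdgfa* UMIs. SMC-like cells held 8.5%, 27.2%, and 34.2%.

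*Pdgfb* was found mainly in endothelial-like and mono/macro-like cells. Endothelial-like cells had 142 (128 to 156), 300 (260 to 344), and 217 (180 to 261) CPM and mono/macro-like cells 46.0 (39.2 to 53.8), 52.3 (49.7 to 55.0), and 96.1 (92.2 to 100) CPM in contralateral, early, and late libraries. Fibroblast-like cells, at 0.5 to 1.3 CPM, were below the T cell-like cells (15.2 to 22.2 CPM). Endothelial-like cells held 60.9% of *Pdgfb* UMIs in contralateral veins, 10.4% in early, and 3.9% in late AVFs, and mono/macro-like cells 23.0%, 75.1%, and 77.1%. Among the cells kept, most *Pdgfb* UMIs thus lay in another class in AVFs than in contralateral veins, while the level per endothelial UMI was higher in the AVF libraries. In bulk vessels the endothelial marker sums fell and mono/macro marker sums rose, as given above, and their part in the *Pdgfb* values was not tested.

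**Figure D5:**
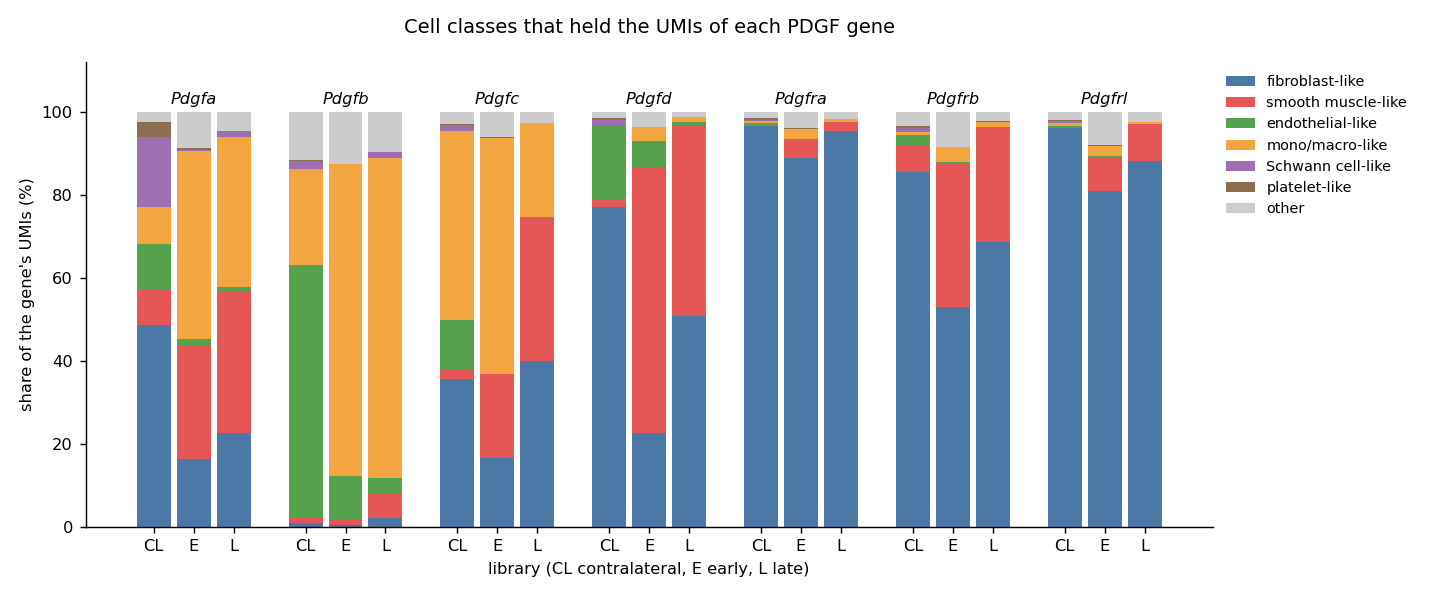
Share of each PDGF gene's UMIs (y axis, percent) held by each cell class in the contralateral, early, and late single-cell libraries. Endothelial-like cells hold 60.9% of *Pdgfb* UMIs in the contralateral library and 3.9% in the late library, where mono/macro-like cells hold 77.1%.

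*Pdgfc* was found in mono/macro-like, SMC-like, and fibroblast-like cells. Mono/macro-like cells had 44.6 (37.8 to 52.2), 24.1 (22.3 to 25.9), and 15.8 CPM in contralateral, early, and late libraries, and SMC-like cells 20.8 (8.38 to 43.0), 50.3 (44.2 to 57.0), and 44.6 (41.0 to 48.5) CPM. Fibroblast-like cells had 9.3, 17.7, and 13.3 CPM. The lower class level of mono/macros in AVFs was not found in the subtype that made up most contralateral cells: resident-like cells had 51.7 (43.7 to 60.8) CPM in contralateral veins and 163 (116 to 222) CPM in early AVFs, the latter from 39 UMIs in 21 cells. Activated-like fibroblasts had 21.9 CPM in early and 24.7 CPM in late AVFs, and contralateral quiescent-like cells 6.8 CPM.

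Macrophage subtypes differed in which ligand they carried. Resident-like macrophages, named from genes such as *Cd163* and *Lyve1*, had 51.7 CPM of *Pdgfc*, 22.7 of *Pdgfa*, and 30.1 of *Pdgfb* in the contralateral library. Inflammatory-like macrophages, named from genes such as *Arg1* and *Mmp12*, had 86.5 and 140 CPM of *Pdgfb*, 81.4 and 117 CPM of *Pdgfa*, and 5.8 and 3.2 CPM of *Pdgfc* in early and late AVFs. In the early library, the 21 resident-like cells had 163 CPM of *Pdgfc*, 12.5 of *Pdgfb* from 3 UMIs, and no UMI of *Pdgfa*, which allows up to 12.5 CPM. Monocyte-like cells had 20.6 and 65.7 CPM of *Pdgfa* and 4.2 and 1.7 CPM of *Pdgfc*. Within the early library *Pdgfc* was thus higher in the 21 resident-like cells than in inflammatory-like cells, and *Pdgfa* and *Pdgfb* were higher in the latter. The largest early subcluster, unnamed with 916 cells and led by *Spp1* and *Arg1*, did not follow this split. It had 51.5 CPM of *Pdgfa*, 41.3 of *Pdgfb*, and 39.7 of *Pdgfc*, the last from 554 UMIs. An unnamed subcluster of 583 late cells, with *Ifnb1*, *Il10*, and *Ccl5* among its leading genes, had the highest *Pdgfa* of any macrophage subcluster, 211 CPM from 1679 UMIs, and 139 CPM of *Pdgfb*. *Pdgfa* was itself among the 10 leading genes of that subcluster, although it took no part in the clustering.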

How the data were processed

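The PDGF genes and all gene lists were chosen with earlier results of these data known. The bulk values deposited by the authors are unnormalized read counts, 1 whole number for each gene and vessel. For the single-cell libraries they deposited UMI counts per gene and barcode. STAR, Cell Ranger, mm10, and GRCm38 are named in the submitters' processing notes, and how reads were assigned to strands or overlapping genes is not given in the sources used here. Deposited gene identifiers were named from the single-cell gene lists (32210) or GENCODE annotation (19962), and 4808 had no name.

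All 25 bulk libraries were fitted together with edgeR 4.0.16 in R 4.3.3 (TMM scaling, a mean per group, no covariate). Genes were tested if their DESeq2-normalized counts averaged 100 or more, and *p* values were adjusted over all of them by the Benjamini–Hochberg method. The labels do not say from which animal each vessel came. The study allotted 25 mice to bulk sequencing, and *p* values measure the spread between these vessels. No 2 libraries were alike within sampling noise. Ratios had 0.5 added to each count and were tested by exact permutation with scipy 1.17.1. Alternatives were DESeq2 1.42.0, other filters and size factors, an adjusted *p* of 0.05, labelled sex, and leaving out libraries.

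Single cells were clustered with leidenalg 0.10.2 on neighbors found with scikit-learn 1.9.0 (2000 variable genes without markers and PDGF genes, 12 components, 20 neighbors, resolution 0.5). A cluster was named if at least 3 fixed markers were raised. This naming rule was settled after clusters had been seen. Many subtype markers are named in the study's text, but others, such as *Pi16* and *Arg1*, are not. The subtype lists are not the study's own definitions. Scrublet, run in scanpy 1.11.5, called 0, 2, and 120 doublets, so it did not work in the contralateral and early libraries, and no barcodes were removed. Each pair of libraries shared 5 or 6 barcodes. Intervals cover counting error only. Named genes were all 7 PDGF genes, up to 3 called pathway genes per role and direction (some are counted but not reported by name here), and the 3 most correlated genes of each.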

Additional observations from a re-analysis of the deposited data

Results flagged for a closer look

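Each group of 4 to 10 vessels was searched for a vessel far from the rest by Dixon's criterion at 95%, for the level of each PDGF gene and for the 3 ratios. Of 40 groups tested, 5 were picked out, where chance gives about 1 in 20. *Pdgfa* in mid 9 was 69.9 CPM, and the nearest other mid AVF was at 52.1 CPM. *Pdgfd* in mid 13 was 80.1 CPM, with the nearest at 53.3 CPM. *Pdgfrl* in late 17 was 134 CPM, with the nearest at 99.3 CPM, and this vessel also had the highest fibroblast marker sum of all, 72751 CPM. The log2 ratio of *Pdgfa* to *Pdgfb* in mid 13 was 2.46, with the nearest at 1.89. The log2 ratio of *Pdgfra* to *Pdgfrb* in contralateral 31 was 6.41, with the nearest at 1.22, which follows from its *Pdgfrb* level of 2.01 CPM. A term for the interaction of labelled sex with group passed in none of 21 tests of PDGF genes by edgeR (lowest adjusted *p* = 0.820, lowest unadjusted *p* = 0.192), on labels that differed from sex-linked reads in 8 of 25 libraries.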

How the results depend on the processing

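Of 560 values of 16 log2 fold changes of PDGF genes under alternatives, 506 kept their direction and side of the threshold and 6 reversed, and 12 of 540 values of ratios reversed. Of 350 values of the pathway genes named, 293 kept both and 0 reversed. Leaving out contralateral 28 and 31 together, or early 5, 6, and 7 together, was chosen after seeing the data, and the cause of each change below was not tested. Fits on labelled females or males alone also have fewer samples. PDGF genes called in early AVFs numbered 2, but 1 with a term for labelled sex, 0 in females, 0 in males, and 1 without early 5, 6, and 7. In mid against early AVFs 0 were called, but 1 by DESeq2 and 1 at an adjusted *p* of 0.05. In late against early AVFs 1 was called, but 2 by DESeq2, 2 at 0.05, 2 without contralateral 28 and 31, 0 in females, 0 in males, and 0 without early 5, 6, and 7. Pathway genes called in early AVFs numbered 8, but 1 in females, 4 in males, and 4 without early 5, 6, and 7. In mid AVFs 1 was called, but 5 by DESeq2, 4 with edgeR's filterByExpr, 5 at 0.05, 2 with the sex term, 3 without contralateral 28 and 31, and 0 in females and 0 in males. In late AVFs 3 were called, but 5 by DESeq2, 5 with filterByExpr, 5 at 0.05, and 0 in females and 0 in males. In late against early AVFs 0 were called, but 2 by DESeq2, 2 at 0.05, and 1 without contralateral 28 and 31.

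Reversed log2 fold changes in early AVFs were *Pdgfc* at 0.11 without contralateral 28 and 31 and 0.15 without early 5, 6, and 7, and *Pdgfra* at 0.0083 in males and 0.11 without early 5, 6, and 7. In females alone, the log2 ratio of *Pdgfra* to *Pdgfrb* differed by -0.91 in early AVFs from contralateral veins, by -0.42 in mid from early, and by -1.0 in late from early AVFs. That of *Pdgfc* to *Pdgfd* differed by 2.14, -0.58, and -0.66. That of *Pdgfa* to *Pdgfb* differed by 0.11 in mid and 0.31 in late from early AVFs without early 5, 6, and 7.

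Over fits that left out 1 library, PDGF genes called ranged from 1 to 2 in early AVFs, from 0 to 1 in mid against early, and from 0 to 2 in late against early AVFs. Pathway genes called ranged from 0 to 5 in mid and from 0 to 4 in late AVFs. The *Pdgfc* log2 fold change in early AVFs ranged from -0.58 to 0.10. The *Pdgfra* to *Pdgfrb* difference ranged from -0.37 to 1.08 in early and from -1.33 to 0.12 in mid AVFs against contralateral veins, from -1.09 to -0.75 in mid against early, and from -0.72 to -0.46 in late against mid AVFs. The *Pdgfc* to *Pdgfd* difference ranged from 1.38 to 2.08 in mid and from 1.31 to 2.00 in late AVFs against contralateral veins, from -1.13 to -0.74 in mid against early, from -1.22 to -0.81 in late against early, and from -0.25 to 0.021 in late against mid AVFs.

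Of 140 single-cell levels under alternatives, 130 moved by less than counting error. With at least 500 genes per cell, *Pdgfa* in early SMC-like cells was 190 CPM, *Pdgfd* in late SMC-like cells 70.5, and *Pdgfrb* in early and late SMC-like cells 163 and 174 CPM. With 20 principal components, SMC-like cells of early AVFs had 182 CPM of *Pdgfa*, 49.5 of *Pdgfd*, and 155 of *Pdgfrb*, early fibroblast-like cells 275 CPM of *Pdgfra*, and late mono/macro-like cells 106 CPM of *Pdgfa* and 89.1 of *Pdgfb*.

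No paired analysis was possible because the groups share no replicate number. Precision was limited by the spread between contralateral veins, by low counts of *Pdgfb*, and by 36 contralateral SMC-like cells.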
